A study of Mus musculus with 4 samples.

Results

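The genes described here are 38 interferon-stimulated genes of thymocytes at the double-positive (DP) stage, CD4+CD8+, with and without deletion of Usp8, the gene of a ubiquitin-specific protease. They were chosen by name: every non-control probe on the array whose gene name was one of the 38 was taken, with Trim30 and Trim30a as 1 gene. This gave 59 of 41174 probes. After a filter on dim probes, 41 of them were kept, and 32 of the 38 genes were measured, among 12917 genes tested. The genes fell into 28 antiviral effectors (23 measured), 6 guanylate-binding (GBP) and immunity-related (IRG) GTPases (5 measured) and 4 STAT and IRF transcription factors (all measured).

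The mice were untreated, sex-matched littermates of 6 to 12 weeks that carried loxP-flanked Usp8 alleles. The control group (USP8ff) had no Cre, and the other group (USP8ff_CD4Cre) carried Cre under Cd4 regulatory sequences, which are active from the DP stage on. Cre-only mice were not among the samples, and so what Cre itself does and what the deletion does cannot be told apart. Each of the 4 samples pooled sorted cells from 2 mice, 8 mice in all, which left 2 arrays per group. A p-value here reflects the spread between pools only, and 4 arrays allow little precision.

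Type I interferons bind a receptor whose kinases, JAK1 and TYK2, phosphorylate STAT proteins, STAT2 among them. With IRF9 these form a factor that binds the interferon-stimulated response element (ISRE) in the promoters of antiviral genes. Interferon gamma acts through a gamma-activated site (GAS) in promoters and drives the GBP and IRG GTPases more strongly. In the thymus a low level of interferon-stimulated transcripts is known without infection, and their level is known to be higher in mature thymocytes than at the DP stage.

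The promoters of the 4 genes with the lowest unadjusted p among those holding an ISRE core are printed first. This short motif was found in 16 of the 28 genes that had a promoter window. Each window runs from 250 bases before to 50 bases after the RefSeq transcription start (GRCm38.p6), written 5′ to 3′ on the gene's strand. Capitals mark the ISRE core, searched on both strands as GAAA, any 2 bases and GAAA again. In all 4 it lies on the other strand and therefore reads TTTC, 2 bases and TTTC. The windows are chr19:34583279-34583578 (plus strand) for Ifit3, chr19:34640639-34640938 (plus strand) for Ifit1, chr12:26456403-26456702 (minus strand) for Rsad2 and chr7:104446076-104446375 (minus strand) for Trim30, now named Trim30a.
Ifit3: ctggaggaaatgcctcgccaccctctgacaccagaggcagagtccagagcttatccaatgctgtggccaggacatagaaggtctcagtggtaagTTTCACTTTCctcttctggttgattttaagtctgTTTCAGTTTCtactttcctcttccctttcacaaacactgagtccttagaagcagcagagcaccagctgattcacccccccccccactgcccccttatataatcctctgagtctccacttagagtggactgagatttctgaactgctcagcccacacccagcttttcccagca
Ifit1: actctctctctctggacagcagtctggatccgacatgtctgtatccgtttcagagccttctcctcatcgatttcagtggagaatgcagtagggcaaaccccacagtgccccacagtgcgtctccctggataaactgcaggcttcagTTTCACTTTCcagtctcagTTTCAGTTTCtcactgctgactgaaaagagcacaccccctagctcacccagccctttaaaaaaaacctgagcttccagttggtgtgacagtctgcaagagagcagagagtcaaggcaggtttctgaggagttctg
Rsad2: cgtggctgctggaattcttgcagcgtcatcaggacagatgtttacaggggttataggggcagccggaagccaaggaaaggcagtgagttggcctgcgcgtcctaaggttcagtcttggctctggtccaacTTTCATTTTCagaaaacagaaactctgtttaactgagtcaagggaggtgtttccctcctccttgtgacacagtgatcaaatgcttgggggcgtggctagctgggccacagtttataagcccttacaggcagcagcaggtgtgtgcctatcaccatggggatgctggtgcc
Trim30: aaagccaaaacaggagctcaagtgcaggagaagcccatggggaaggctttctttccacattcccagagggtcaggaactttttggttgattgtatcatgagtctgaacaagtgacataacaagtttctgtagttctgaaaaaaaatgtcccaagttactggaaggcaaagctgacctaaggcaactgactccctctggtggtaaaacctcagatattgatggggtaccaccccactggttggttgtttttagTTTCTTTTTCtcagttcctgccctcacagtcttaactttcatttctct

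Ifit3 held 2 cores, which began 156 and 122 bases before the start site, and Ifit1 held 2, at 104 and 85 bases before it. Rsad2 held 1 core, 120 bases before its start site. Trim30 has 2 windows in the table, and in the one printed the core began 2 bases past the start site. RefSeq windows were found for 28 of the 38 genes, and 16 of these (57.1%) held an ISRE core, against 3.99% of 27025 genes. The core was in 11 of 19 antiviral effectors, in 4 of 5 GTPases, and in 1 of 4 regulators, Stat2. The GAS core, searched as TTCNNNGAA (which reads the same on both strands), was in 9 of the 28 (32.1%), against 9.55% of all genes. A match of these letters is a description of the sequence and does not show binding.

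All 11 DP-stage markers on the list, among them Cd8a, Rag1 and Dntt, were well above background on all 4 arrays. Probes well above background numbered 18522 to 20137 per array, no spot was saturated, and arrays of 1 genotype correlated at 0.993 and 0.995. Usp8, the targeted gene, had a log2 signal of -0.23 and -0.40 in the USP8ff pools and of -1.03 and -1.23 in the USP8ff_CD4Cre pools, a difference of -0.81 ± 0.13 (SE; limma adjusted p = 0.588). The Usp8 signal was thus lower in both deleted pools, at 56.9% of the control level. Here and throughout, a log2 signal is the processed spot signal relative to the 75th percentile of its array, and a difference is USP8ff_CD4Cre minus USP8ff on that log2 scale. Because the samples are bulk RNA, fewer cells expressing a gene and less RNA of it per cell cannot be told apart.

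No gene passed the limma test with Benjamini-Hochberg adjustment at 0.05 (0% of 12917 genes), and so no interferon-stimulated gene did. The smallest adjusted p over all genes was 0.289, while 966 genes had an unadjusted p under 0.05. Most of the interferon-stimulated genes differed in the same direction: 26 of the 32 measured had a negative difference, where 45.1% of all genes did. In 17 of them both USP8ff_CD4Cre pools were below both USP8ff pools (background 16.3%), in none were both above (background 24.4%), and in 15 the groups overlapped. At an unadjusted p under 0.05, 7 were lower (background 3.48%) and none higher (background 4%), and 5 were at least 1.5-fold lower (background 1.71%). Of these 5, Oasl2, Ifit1 and Iigp1 were not well above background on the first USP8ff_CD4Cre array and passed the filter through USP8ff, where they were higher. Oasl2, Ifit1 and Iigp1 were also among the 17 without overlap, and Oasl2 and Ifit1 were among the 7. With normexp background correction the differences of the 5 were smaller, -0.48 for Ifit1, -0.46 for Iigp1, -0.40 for Ifit3, -0.40 for Rsad2 and -0.40 for Oasl2, so that none was 1.5-fold lower. The median difference of the 32 was -0.26, beside 0.02 over all genes tested. Among the 29 that were well above background on all 4 arrays it was -0.20. These counts depended strongly on the first USP8ff_CD4Cre pool. Without it, 20 of the 32 were negative, 4 were lower at an unadjusted p under 0.05 (Ifit1, Ifit3, Oasl2 and Trim30; 4.66% of all genes), and the median was -0.08. Leaving out the second USP8ff pool also lowered the median's size, to -0.08, and without either USP8ff pool 4 were lower at that p (4.34% and 3.74% of all genes).

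**Figure D1:**
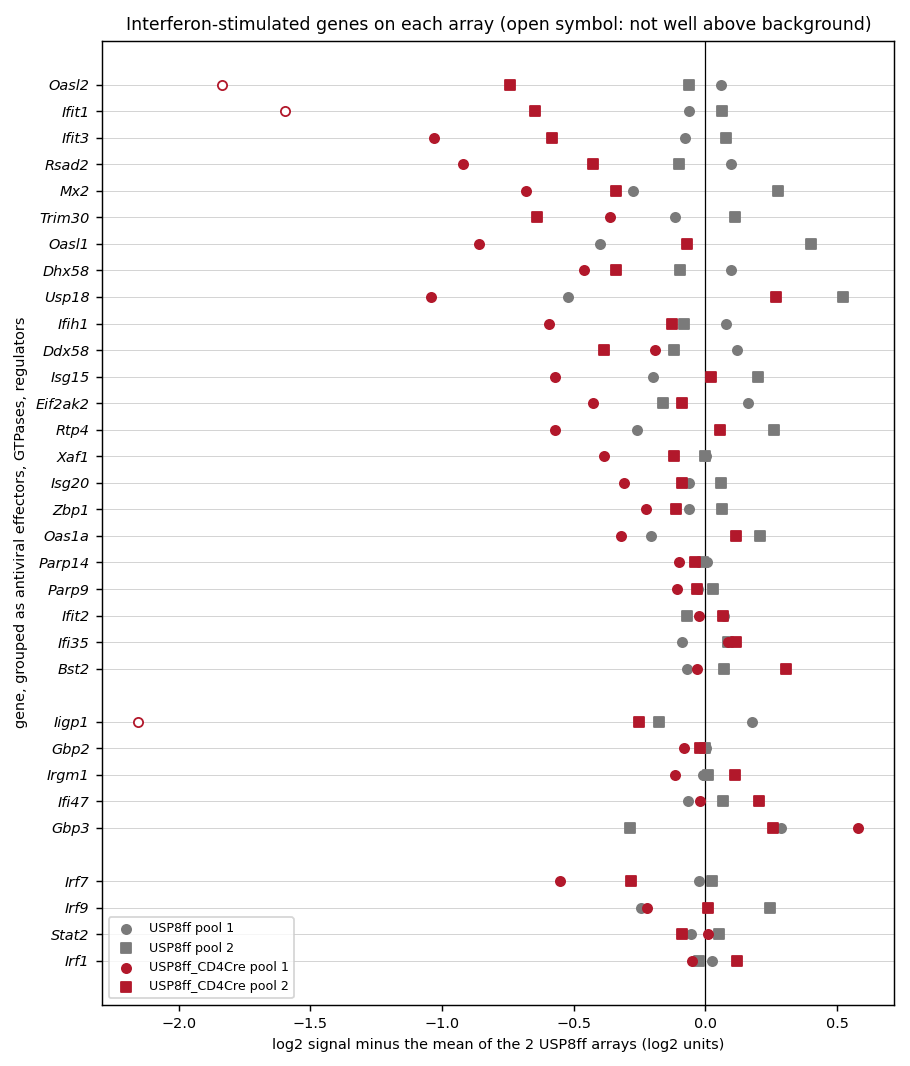
Log2 signal of each measured interferon-stimulated gene on each of the 4 arrays, relative to the gene's own mean over the USP8ff arrays. Points are pools, coloured by genotype and grouped by class, and open points mark probes not well above background on that array. The first USP8ff_CD4Cre pool is the lowest of the 4 for 23 of the 32 genes.

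Among the antiviral effectors, 20 of the 23 measured had a negative difference and 3 a positive one, with a median of -0.27 and a range of -1.29 to 0.14. In 14 the deleted pools were both below the controls (background 16.3%), and in 9 the groups overlapped. The 14 include Ifit1 and Oasl2, which were not well above background on the first USP8ff_CD4Cre array. The median was -0.09 without the first USP8ff_CD4Cre pool, -0.43 without the second and -0.14 without the second USP8ff pool. The IFIT proteins bind foreign RNA. Ifit3 had a log2 signal of -2.22 and -2.07 in the USP8ff pools and of -3.18 and -2.73 in the USP8ff_CD4Cre pools, a difference of -0.81 ± 0.18 (SE; limma adjusted p = 0.657). Its groups did not overlap, and its mean level with deletion was 57.2% of the control level. Ifit1 had -2.75 and -2.63 against -4.29 and -3.34, a difference of -1.12 ± 0.32 (limma adjusted p = 0.657). Its first USP8ff_CD4Cre value was not well above background, and with that value raised to the floor of its array (the lowest signal there that was well above background) the difference was -1.0. Leaving out 1 array moved the difference of Ifit1 between -1.60 and -0.65. Ifit2, with 0.53 and 0.39 against 0.43 and 0.53, overlapped between groups, and its difference was 0.02 ± 0.11. The 3 IFIT genes therefore did not share a pattern: Ifit1 and Ifit3 were lower in both deleted pools, and Ifit2 was not.

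The OAS family makes the oligoadenylates that activate RNase L, and its OAS-like relatives act on RNA sensing and viral RNA. Oasl2 had a log2 signal of -3.15 and -3.28 in USP8ff against -5.05 and -3.96 in USP8ff_CD4Cre, a difference of -1.29 ± 0.36 (limma adjusted p = 0.657). The value of -5.05 was not well above background, and at the floor of that array the difference was -0.79, smaller than that of Ifit1 and Ifit3. Leaving out 1 array moved it between -1.84 and -0.74. Oasl1 overlapped between groups, with -2.07 and -1.27 against -2.53 and -1.74 (difference -0.47 ± 0.37). Oas1a overlapped as well, with -2.95 and -2.54 against -3.07 and -2.63 (difference -0.10 ± 0.21). For both Oasl1 and Oas1a, the second pool was higher than the first in each genotype, by more than the genotypes differed. Oas2 was well above background on the second USP8ff array alone and Oas3 on the second USP8ff_CD4Cre array alone, so neither was tested.

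Of 6 genes of other antiviral enzymes and restriction factors, all but Bst2 had a negative difference. Rsad2 encodes viperin, an enzyme that makes a chain-terminating nucleotide. It had -1.43 and -1.63 in USP8ff against -2.45 and -1.96 in USP8ff_CD4Cre, a difference of -0.67 ± 0.19 (limma adjusted p = 0.657), with no overlap. Trim30, a TRIM family protein that restrains Toll-like receptor signalling, had 0.76 and 0.98 against 0.51 and 0.23. Its difference was -0.50 ± 0.15 (limma adjusted p = 0.657), and a second probe gave -0.46. Trim30 was 1 of 3 members that were lowest in the second USP8ff_CD4Cre pool. Mx2, a dynamin-like GTPase that blocks viruses, had -1.91 and -1.36 against -2.31 and -1.97, without overlap and with a difference of -0.51 ± 0.23. Eif2ak2, the kinase PKR that halts translation on sensing double-stranded RNA, overlapped between groups (-0.83 and -1.15 against -1.42 and -1.08, difference -0.26 ± 0.18). Isg20, an exonuclease, had 0.56 and 0.68 against 0.31 and 0.53, with both of its probes at a difference of -0.20. Bst2, or tetherin, which holds budding virions at the cell surface, had 3.37 and 3.51 against 3.40 and 3.74. Its groups overlapped, and its difference was 0.14 ± 0.15, or -0.03 without the second USP8ff_CD4Cre pool.

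The RNA sensors of the RIG-I family had negative differences on the probes that stood for them. Dhx58 (LGP2) had a log2 signal of -1.15 and -1.34 in USP8ff against -1.71 and -1.58 in USP8ff_CD4Cre, a difference of -0.40 ± 0.12 (limma adjusted p = 0.657). Its groups did not overlap, and its level with deletion was 75.8% of control. Ifih1 (MDA5) had -1.39 and -1.55 against -2.06 and -1.60, a difference of -0.36 ± 0.19 in which the first deleted pool was farther from the controls than the second. Ddx58 (RIG-I) had -0.33 and -0.57 against -0.64 and -0.84, a difference of -0.29 ± 0.14, but its other kept probes gave 0.18 and -0.08. The direction of Ddx58 was thus not shared by its probes. Zbp1, a sensor of Z-form nucleic acids, had 2.47 and 2.59 against 2.31 and 2.42, without overlap (difference -0.17 ± 0.11).

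Isg15, a ubiquitin-like modifier, overlapped between groups, with -0.31 and 0.09 in USP8ff against -0.68 and -0.09 in USP8ff_CD4Cre (difference -0.27 ± 0.24). Usp18, the protease that removes ISG15 and dampens the interferon receptor, had -0.27 and 0.77 against -0.79 and 0.52 (difference -0.39 ± 0.53). In both genotypes the second pool of Usp18 was higher than the first by more than 1 log2 unit, and without the first USP8ff_CD4Cre pool the difference was 0.27. Rtp4 had 2.05 and 2.57 against 1.74 and 2.37 (difference -0.26 ± 0.27), also with the second pool higher in each genotype. Xaf1, a pro-apoptotic gene, had -1.33 and -1.34 against -1.72 and -1.46, without overlap (difference -0.25 ± 0.13). The ADP-ribosyltransferase family genes Parp14 and Parp9 each had a difference of -0.07. Parp14 had 2.06 and 2.04 against 1.95 and 2.01, and Parp9 had 0.51 and 0.57 against 0.43 and 0.51. In both genes the deleted pools lay just below the controls, and the difference was smaller than its standard error of 0.10 and 0.11. Ifi35 had 0.85 and 1.03 against 1.03 and 1.06, with overlapping groups (difference 0.10 ± 0.12).

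Of the antiviral effectors that were not measured, Ifi44 and Mx1 reached the level well above background on none of the 4 arrays. Samhd1, whose product degrades deoxynucleotides, had -3.71 and -3.72 in USP8ff against -5.03 and -5.07 in USP8ff_CD4Cre on 1 of its 2 probes. It was well above background only on the second USP8ff array, which left it out of the test. No fold is given for it, because only 1 of the 4 values was well above background. Its probe spans 1354 bases of the genome, so it crosses at least 1 splice junction. In the authors' deposited table of 78 probes, Samhd1 was the only member listed, at an absolute fold of 2.52 marked as down, with the genotype taken as reference not stated.

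**Figure D2:**
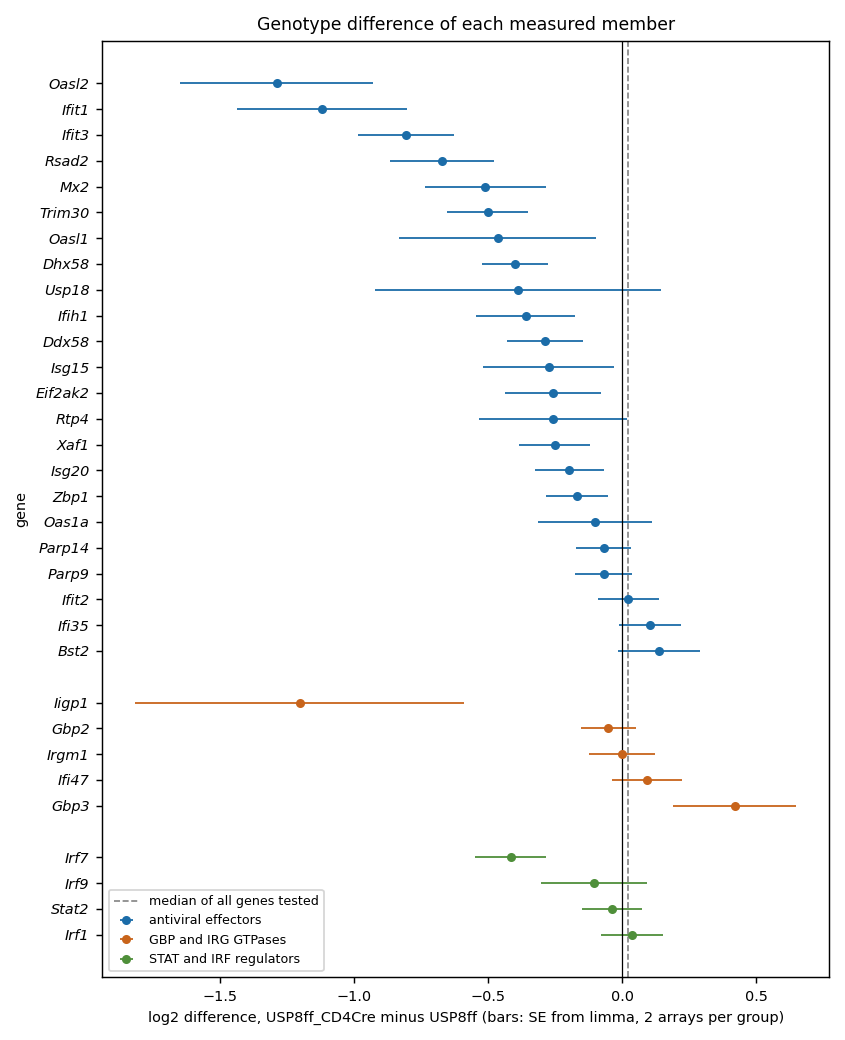
Difference in log2 signal, USP8ff_CD4Cre minus USP8ff, for each measured interferon-stimulated gene, with bars of 1 standard error from limma. Genes are grouped by class. Oasl2 at -1.29, Iigp1 at -1.20 and Ifit1 at -1.12 each include 1 array not well above background; with that array at its floor they are -0.79, -0.87 and -1.0, beside -0.81 for Ifit3.

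The GBP and IRG GTPases, which attack the vacuoles of intracellular microbes, had no common direction. Of the 5 measured, 3 were negative and 2 positive, the median was -0.0016, and none had an unadjusted p under 0.05. The median was 0.11 without the first USP8ff_CD4Cre pool and -0.08 without the second. Iigp1 had a log2 signal of -2.38 and -2.74 in USP8ff against -4.71 and -2.81 in USP8ff_CD4Cre, a difference of -1.20 ± 0.61 (limma adjusted p = 0.693). The second deleted pool lay just under the lower control pool, and the first was not well above background, so the difference rested on 1 dim array. At that array's floor it was -0.87, and without the array it was -0.25. Gbp3 had -0.62 and -1.19 against -0.32 and -0.65, with overlapping groups (difference 0.42 ± 0.23, or 0.71 without the first USP8ff pool and 0.13 without the second). Gbp2 had 1.11 and 1.10 against 1.02 and 1.09 (difference -0.05 ± 0.10), the deleted pools just below the controls. Ifi47 had 2.30 and 2.43 against 2.34 and 2.57, with overlapping groups (difference 0.09 ± 0.13). Irgm1, a regulator of the other IRG proteins, had 1.19 and 1.20 against 1.08 and 1.31, the deleted pools on either side of the controls.

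Igtp (Irgm3) was the sixth gene of the class and was left out of the test. The spot of its only probe carried the scanner's outlier flag on the first USP8ff array. Its log2 signal was 5.39 on that array and 5.94 on the second USP8ff array, against 5.56 and 5.55 with deletion. With the marked spot the difference was -0.11, and against the second USP8ff array alone it was -0.39.

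Among the transcription factors, 3 of 4 had a negative difference and 1 was lower at an unadjusted p under 0.05 (background 3.48%). The median was -0.07, with -0.22 without the first USP8ff pool and 0.01 without the second. Irf7, itself induced by interferon and the factor that amplifies interferon alpha production, had -1.55 and -1.50 in USP8ff against -2.08 and -1.81 in USP8ff_CD4Cre. Its difference was -0.42 ± 0.13 (limma adjusted p = 0.657), without overlap, and its level with deletion was 74.9% of control. Its RefSeq window held no ISRE core. Stat2 had 2.20 and 2.30 against 2.26 and 2.16, with overlapping groups (difference -0.04 ± 0.11). Irf9, its DNA-binding partner, had 0.85 and 1.34 against 0.87 and 1.10 (difference -0.11 ± 0.20), again with overlap. Irf1, the factor induced by interferon gamma, had 3.96 and 3.91 against 3.89 and 4.06, also with overlap. Its difference was 0.04 ± 0.12, and it turned to -0.03 with quantile normalization and to -0.0072 with normexp background correction.

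The probes of the 7 genes with an unadjusted p under 0.05 lie, on mm9 per the scanner files, at chr19:34663105-34663164 (Ifit3), chr19:34723796-34723855 (Ifit1), chr5:115362168-115362227 (Oasl2), chr12:27127859-27127918 (Rsad2), chr7:111557578-111557637 (Trim30), chr11:100556271-100556330 (Dhx58) and chr7:148450664-148451014 (Irf7). No annotation of that build was used here, so their place in exons is not given. Of these 7, all but Dhx58 had a RefSeq window; 4 of the 6 held an ISRE core and none a GAS core. Of the other 18 measured genes with a window, 10 held an ISRE core and 7 a GAS core. Over all genes with a window the shares were 3.99% and 9.55%. This split was made by p in these same data, has only 6 genes on one side and was not tested.

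The 4 arrays did not divide simply by genotype in these genes. The first USP8ff_CD4Cre pool had the lowest value for 23 of the 32 genes (background 14.1%), 18 of them antiviral effectors. The 23 include Oasl2, Ifit1 and Iigp1, which were not well above background on that array. That pool also had the highest value for 1 gene, and the second USP8ff pool had the highest for 15. In 28 of the 32 the second USP8ff_CD4Cre pool was above the first (background 50.5%). For 19 genes the 2 USP8ff_CD4Cre pools differed from each other by more than the genotypes did, a share near that of all genes (52.8%). The median difference of the first USP8ff_CD4Cre pool was -0.28 from the first USP8ff pool and -0.38 from the second. That of the second USP8ff_CD4Cre pool was -0.03 and -0.14. Between the USP8ff_CD4Cre pools the median was 0.25 (the second minus the first), and between the USP8ff pools it was 0.08, while over all genes every one of these pairwise medians lay between 0.00 and 0.04.

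**Figure D3:**
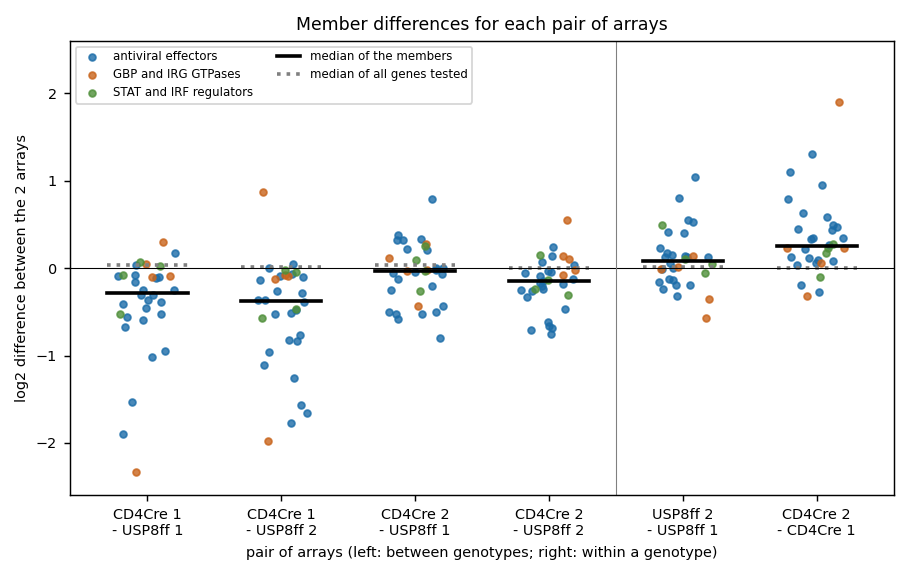
Difference in log2 signal between pairs of arrays, for the measured interferon-stimulated genes and for all genes tested. Both pairs with the first USP8ff_CD4Cre pool have member medians of -0.28 and -0.38, and both pairs with the second have -0.03 and -0.14.

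The rest of the pathway was described by lists that hold none of the 32 genes. Of 13 interferon ligands, 4 were measured, 1 negative and 3 positive with none at an unadjusted p under 0.05, and no array had Ifnb1 or Ifng well above background. Among the 4, Ifna13 was not well above background on the first USP8ff array, and Ifnab was not on either USP8ff array. Both passed the filter only through USP8ff_CD4Cre. The ligand with the smallest p, Ifna9, had a difference of 0.17 ± 0.11. Of 10 receptor and proximal signalling genes, 9 were measured, 4 negative and 5 positive, with none at that p and a median of 0.01. Tyk2, a receptor-bound kinase and the gene of the list with the smallest p, had 0.74 and 0.68 in USP8ff against 0.42 and 0.56 in USP8ff_CD4Cre, without overlap (difference -0.22 ± 0.11). Of 6 signalling inhibitors, 1 was negative and 5 positive, with none at that p, a median of 0.09 and the smallest p for Irf2 (0.24 ± 0.16).

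Of 14 sensors, adaptors and factors that induce interferon, 12 were measured, with 1 lower and 1 higher at an unadjusted p under 0.05. Tlr7, the endosomal receptor for single-stranded RNA, had -3.07 and -3.17 in USP8ff against -3.83 and -4.10 in USP8ff_CD4Cre, a difference of -0.85 ± 0.14 (limma adjusted p = 0.579). E330016A19Rik, now Cgas, the cytosolic DNA sensor, had -0.98 and -1.26 against -0.76 and -0.50 (difference 0.49 ± 0.16). Neither gene overlapped between groups.

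A further 55 interferon-stimulated genes were listed beside the 38, and 38 of them were measured. Of these, 22 were negative and 16 positive, with a median of -0.06. Among the 16, Parp12, Gbp1 and Cmpk2 passed the filter only through USP8ff_CD4Cre. The deleted pools were both below the controls in 11 (28.9%, background 16.3%) and both above in 5 (background 24.4%). At an unadjusted p under 0.05, 4 were lower (10.5%, background 3.48%) and 2 higher (background 4%). Slfn5, of the Schlafen family, had 1.49 and 1.65 in USP8ff against 0.70 and 0.51 in USP8ff_CD4Cre, a difference of -0.97 ± 0.13 (limma adjusted p = 0.411). The other lower genes were Trim34 (-0.48), Trim5 (-0.42) and Gbp8 (-0.38), and the higher ones were Ly6e (0.37) and Parp12. Parp12 was not well above background on either USP8ff array and passed the filter only through USP8ff_CD4Cre, so no size is given for it. The first USP8ff_CD4Cre pool was the lowest array for 9 of these 38 genes, or 23.7%, beside 71.9% of the 32 members. The difference of these shares was not tested.

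**Figure D4:**
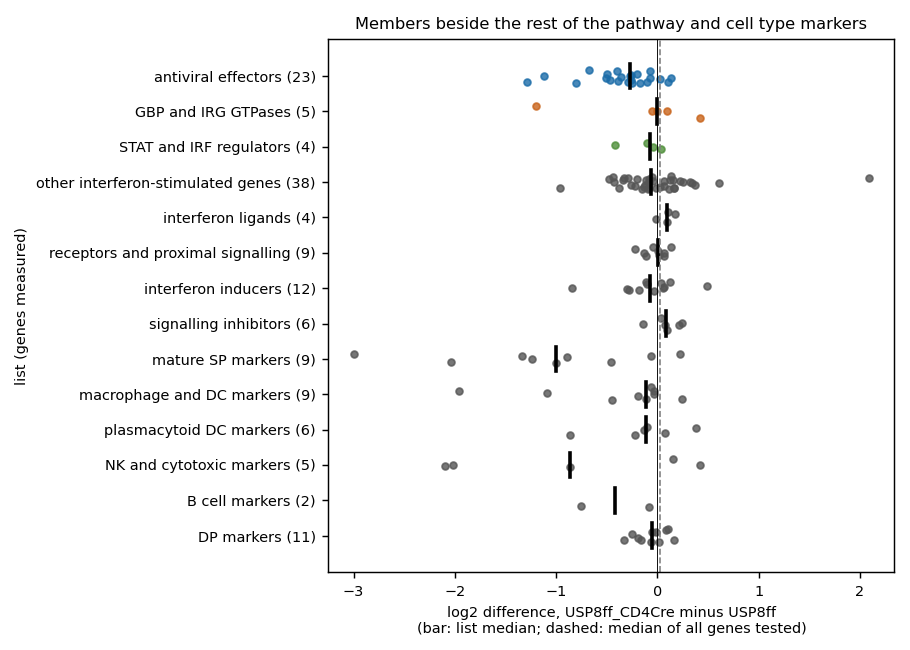
Difference in log2 signal, USP8ff_CD4Cre minus USP8ff, for the genes of each list, with the list median as a bar and the median of all genes tested as a dashed line. The antiviral effectors have a median of -0.27, the other interferon-stimulated genes -0.06 and the mature single-positive (SP) markers -1.0.

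Some markers of cells other than DP thymocytes were lower with deletion at an unadjusted p under 0.05 (background 3.48%), and none passed the adjusted test. Of the 11 DP markers, 7 had a negative difference and 4 a positive one, and Rag2 (-0.33) was lower at that p. Both deleted pools were below both controls in 4 DP markers (background 16.3%) and above both in 3 (background 24.4%). Of 9 measured markers of mature single-positive thymocytes, 8 were negative (background 45.1%) and 7 lower at an unadjusted p under 0.05, with a median of -1.0. Of the 7, Il7r, Itgae and Gimap4 were not well above background on either USP8ff_CD4Cre array and passed the filter only through USP8ff, which leaves 4 of the 6 markers that were well above background on all arrays. Their summed linear signal, relative to each array's 75th percentile, was 158 to 173 in USP8ff and 157 to 161 in USP8ff_CD4Cre, a sum made up mostly of Klf2 and Cd52, and no array had S1pr1 well above background. Of those 6 markers, 4 had their lowest value in the second USP8ff_CD4Cre pool and 1 in the first. Of the 32 interferon-stimulated genes, 3 had it in the second and 23 in the first, beside 27.1% and 14.1% of all genes. Of 20 macrophage and dendritic cell markers, 9 were measured, 8 of them negative (background 45.1%), with summed signals of 4.03 to 4.24 against 3.01 to 3.23. The USP8ff sums were made up mostly of H2-Ab1, Lyz2 and Ctss, and of these only Ctss did not overlap between groups. In 5 of the 9 the groups overlapped, as they did in 7667 of the 12917 genes tested. C1qb, not well above background on the first USP8ff array, had both deleted pools above both controls. In that list Ctss (-1.96), Mpeg1 (-1.09) and Cd74 (-0.45) were lower at an unadjusted p under 0.05, while Emr1, C1qa, H2-Aa, Mertk, Mrc1 and Fcgr3 were not well above background on any array. Of 8 plasmacytoid dendritic cell markers, 6 were measured, 4 negative (background 45.1%) and 2 positive, with overlapping groups in 5 (7667 of all 12917 genes). Pacsin1 (-0.86) was lower at that p, and no array had Siglech well above background. Their summed signals overlapped, at 144 to 191 in USP8ff and 165 to 182 in USP8ff_CD4Cre, made up mostly of Ly6d. Of 11 NK and cytotoxic markers, 5 were measured and 3 were lower at that p (Nkg7, Il2rb and Prf1). Il2rb was not well above background on the first USP8ff_CD4Cre array and passed the filter only through USP8ff, where it was higher. Gzma (0.42) and Tbx21 (0.15) had both deleted pools above both controls. The sums, made up mostly of Gzma, overlapped at 4.28 to 4.37 and 3.94 to 5.29, and Ncr1 and Eomes were not well above background on any array. Of 7 B cell markers, 2 were measured and neither was lower at that p, with sums of 6.16 to 6.62 and 5.17 to 6.08, and no array had Cd79a, Ms4a1 or Pax5 well above background. The part of these cell types in the differences of the interferon-stimulated genes was not tested.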

How the data were processed

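Per the labels, RNA of sorted DP thymocytes was labelled with Cy3. Per the file headers, Feature Extraction 10.7.3.1 processed the 4 single-colour Agilent arrays and removed background. The deposited files hold spot intensities with no scaling across arrays. A table of the authors' own comparison, also deposited, gives an absolute fold and a p-value for 78 probes, made with software that the labels and headers do not name. The 4 columns of a further processed table match no label and were not used.

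Log2 processed signals were scaled by subtracting, on each array, their 75th percentile over non-control spots. Outlier spots were dropped (17 of 41174 probes lost all usable spots on an array), and repeated spots of a probe were averaged. The filter kept 19038 probes (46.2%), those well above background on every array of USP8ff, of USP8ff_CD4Cre or of both. The kept probe with the highest mean stood for its gene, under the name in the array design. The test was limma 3.58.1 under R 4.3.3 (lmFit, eBayes), adjusted by Benjamini-Hochberg over 12917 genes, threshold 0.05; the script was tested on simulated data. Motifs were counted with Python 3.11.15.

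The genes and lists were chosen with earlier results of these data known, so no list was tested; shares over all genes serve as background for the counts. Every member is named, with Usp8 and, in each pathway list, the genes with an unadjusted p under 0.05 or else the smallest p. Cell type markers are named only in part. Alternatives covered scaling, background correction, the filter, probe choice, outlier spots, the eBayes trend, a replicate block and leaving out each array.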

Additional observations from a re-analysis of the deposited data

How the results depend on the processing

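No gene was called under any alternative run. The median over the members measured (29 to 37 of them, depending on the filter) stayed between -0.26 and -0.20 with other scalings, filters and probe choices. Single genes moved more: with normexp background correction Oasl2 was -0.40, Ifit1 -0.48, Iigp1 -0.46, Ifit3 -0.40 and Rsad2 -0.40. Leaving out 1 array at a time moved it between -0.34 and -0.0753, that of the antiviral effectors between -0.43 and -0.0906, that of the GTPases between -0.0828 and 0.11 and that of the regulators between -0.22 and 0.0121. The members lower at an unadjusted p under 0.05 then numbered 4 to 10, with 10 without the second USP8ff_CD4Cre pool (1.78% of all genes). Equal replicate numbers deviated together (correlation 0.32 over all genes), but 2 pairs do not settle a pairing; with a replicate block, chosen after seeing the data for this count, 11 members were lower at that p (5.4% of all genes). Over all genes, 449 were lower and 517 higher at that p, and with median scaling 482 and 335. In 392 of 413 comparisons of a member with its value under an alternative the direction was kept, and in 21, over 11 members, it turned. Ifit2 turned to -0.0107 with the mean of its probes. Irf1 was -0.031 with quantile normalization and -0.0072 with normexp. The other turns came from leaving out 1 array, with ranges of -0.0333 to 0.31 for Bst2, -0.021 to 0.20 for Ifi47, -0.0472 to 0.0912 for Ifit2, -0.0497 to 0.12 for Irf1, -0.35 to 0.14 for Irf9, -0.11 to 0.11 for Irgm1, -0.57 to 0.02 for Isg15, -0.32 to 0.12 for Oas1a, -0.57 to 0.0553 for Rtp4, -0.0913 to 0.0146 for Stat2 and -1.04 to 0.27 for Usp18. Without a turn, leaving out 1 array gave -1.03 to -0.58 for Ifit3, -0.92 to -0.43 for Rsad2 and -2.15 to -0.25 for Iigp1. The cause was not tested. Signal over background limits Ifit1, Oasl2 and Iigp1, which were measured on 3 arrays.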

Other observations

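Gbp1, a guanylate-binding protein gene outside the 38, had a log2 signal of -1.65 and -6.37 in the USP8ff pools and of -1.20 and -2.66 in the USP8ff_CD4Cre pools. The second USP8ff value was not well above background, while the other 3 were. The gene thus passed the filter only through USP8ff_CD4Cre, so no size is given for it, and its groups overlapped. A single probe was kept for this gene, and the gene was singled out after its values were seen.

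Trim30, Trim34, Trim5 and Trim12 belong to 1 TRIM gene cluster on chromosome 7. Trim34 had 0.13 and -0.01 in USP8ff against -0.31 and -0.53 in USP8ff_CD4Cre, and Trim5 had -0.64 and -0.67 against -0.92 and -1.24. Neither gene overlapped between groups, as for Trim30 (background 16.3% for both deleted pools below both controls). In all 3 genes the second USP8ff_CD4Cre pool was the lowest (background 27.1%). Trim12 had 4.73 and 4.93 against 4.79 and 4.64, and overlapped between groups, with its lowest value also in that pool. Trim34 and Trim5 were already named for their unadjusted p, and these genes were set together after their values were seen.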
